A study of Mus musculus with 6 samples.

Results

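The genes described here are components and regulators of complement, *C1s1* (C1S on the array), *C4a* (C4A), *C4b* (C4B), *C3*, *Cfb* (CFB), *Serping1* (SERPING1) and *Cd59a* (CD59A). They were chosen by name, as probes whose gene name on the array was one of 8 listed complement genes. Of these, 7 had probes, with 13 probes among the 45281 probes and 30854 gene names of the array, and 1 was not analysed here. C2C12 cells are an established line of mouse myoblasts, which fuse into myotubes in low serum. They received 60 nM of scramble siRNA (Scramble) or of a single siRNA against *Dj1* (siDJ-1), were switched to differentiation medium 48 h later and were harvested as myotubes after 4 days. RNA of 3 samples per group was hybridized to 1 Illumina Mouse WG-6 V2 BeadChip, 1 array per sample, to find which transcripts change in muscle cells when DJ-1 is depleted. Nothing in the sources used here says whether the samples of a group were separate cultures, so p-values measure only the spread between these samples, which may be technical. Precision is limited by having 3 arrays in each group.

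Complement is a cascade of plasma proteins that tags targets and punctures membranes. The classical route starts with the C1 complex, whose protease C1s cuts C4 and C2. The alternative route uses factor B on deposited C3b, and both routes meet at the cleavage of C3. Liver makes most of the circulating proteins, many other cells make smaller amounts locally, and host cells carry inhibitors such as CD59 on their surface.

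The targeted gene was read by 1 probe of *Dj1* (*Park7*, ILMN_2728754). Its raw signal, the mean brightness of the beads that carry the probe, was 12019.5, 10900.4 and 12251 on Scramble arrays 1, 2 and 3 and 5935, 6585.5 and 4234 on siDJ-1 arrays 1, 2 and 3. All 3 siDJ-1 arrays lay below all 3 Scramble arrays. After background correction and quantile normalization, the log2 fold change was −1.16 (SE 0.14, adjusted p = 0.00344 with limma, Benjamini-Hochberg over all 17890 tested probes), or 44.7% of the Scramble level.

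The RefSeq promoter table of GRCm38.p6 held 3 of the 7 genes, *C3*, *C1s1* and *Cd59a*, and all 3 are shown. Each line gives the 250 bases before the start, 5′ to 3′ along the gene, from chr17:57228137-57228386 (minus strand), chr6:124542360-124542609 (minus strand) and chr2:104095551-104095800 (plus strand). Capitals mark every match, on either strand, to 4 motifs linked to inflammatory control of complement and acute-phase genes. These were GAS (TTCNNNGAA), the ISRE core (GAAA, any 2 bases, GAAA), a loose NF-kappaB motif (GGG, any 5 bases, CC) and C/EBP (TTGCNNNAA).
C3: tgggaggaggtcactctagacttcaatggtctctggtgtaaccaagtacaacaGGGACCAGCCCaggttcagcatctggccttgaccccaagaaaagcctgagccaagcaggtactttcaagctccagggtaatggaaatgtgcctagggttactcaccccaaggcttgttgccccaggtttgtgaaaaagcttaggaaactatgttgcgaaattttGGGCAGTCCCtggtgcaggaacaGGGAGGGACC
C1s1: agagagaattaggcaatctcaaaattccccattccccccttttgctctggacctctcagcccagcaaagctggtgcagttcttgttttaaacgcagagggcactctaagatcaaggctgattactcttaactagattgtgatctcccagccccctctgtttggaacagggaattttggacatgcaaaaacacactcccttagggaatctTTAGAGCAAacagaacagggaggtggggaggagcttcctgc
Cd59a: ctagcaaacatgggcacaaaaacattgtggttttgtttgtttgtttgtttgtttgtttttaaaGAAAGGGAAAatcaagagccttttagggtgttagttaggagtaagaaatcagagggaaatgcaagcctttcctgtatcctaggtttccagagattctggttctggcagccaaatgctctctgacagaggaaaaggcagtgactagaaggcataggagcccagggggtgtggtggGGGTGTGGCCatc
The *C3* window held the NF-kappaB letters in 3 separate stretches, at −197 to −187, −33 to −24 and −10 to −1 from the start, the farthest of them made of 2 overlapping matches on opposite strands. The *C1s1* window held 1 C/EBP match on the opposite strand, at −41 to −33. RefSeq lists another, overlapping start for *C1s1*, whose window held 2 C/EBP matches and 1 NF-kappaB match. The *Cd59a* window held 1 ISRE core at −187 to −178 and 1 NF-kappaB match at −13 to −4. No window held the GAS letters. Of all 32536 distinct promoter windows of this length, 46% held the NF-kappaB letters, 8.3% C/EBP, 7.04% GAS and 2.98% the ISRE core. A match describes letters in these windows and is not a measured binding site.

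Of the 13 probes, 7 were detected well enough to be tested, from *C1s1* (2 probes), *Serping1* (2 probes), *C3*, *Cfb* and *Cd59a*. A probe was tested when its detection p, the share of negative control probes at least as bright on the same array, was under 0.05 on at least 3 of the 6 arrays. Of the 7 tested probes 6 were called at an adjusted p under 0.05, where 30.1% of all tested probes were called. The 4 lower probes belonged to *C1s1*, *C3* and *Cfb* (13.6% of all tested probes were called lower), and the 2 higher probes were both of *Serping1* (16.5% were called higher). The groups did not overlap on the normalized scale for 6 of the 7, where 48.5% of all tested probes did not overlap. The median log2 fold change of the 7 probes was −0.80, against 0.05 over all 17890. *C1s1* and *Serping1* each count with 2 probes in these shares. The genes here and in the lists below were chosen with earlier results of these data known. Such shares and medians therefore only describe the chosen probes, and are no test of them as a set. The count was 3 without siDJ-1 array 1 and 3 without siDJ-1 array 2, fits in which calls over all tested probes also fell, from 5387 to 2559 and 4045.

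**Figure D1:**
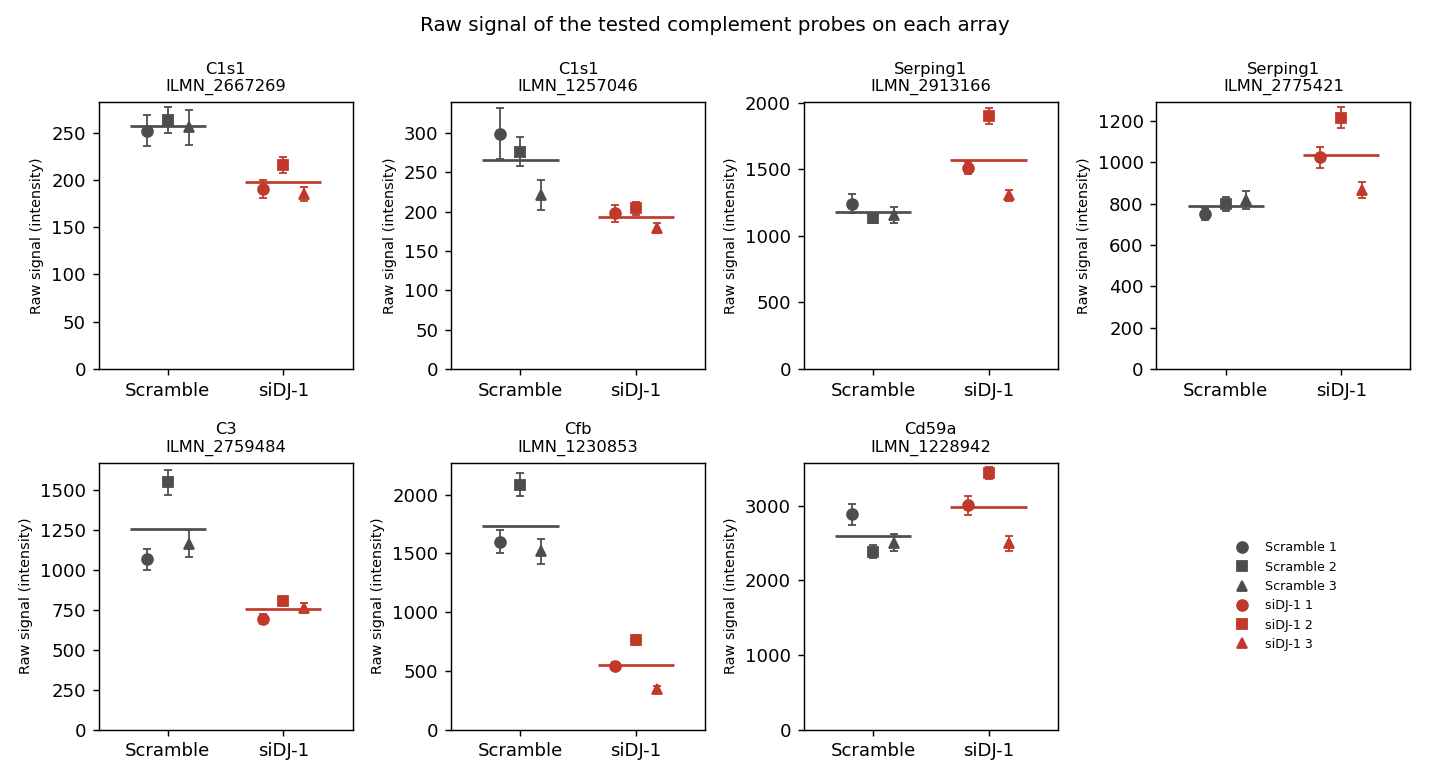
Raw signal (intensity, vertical axis from 0) of the 7 tested probes on each of the 6 arrays, with a marker per array, error bars for the standard error over beads, and a line at the mean of each group. The siDJ-1 markers of *Cfb* lie between 350.0 and 764, below every Scramble marker, and those of *Cd59a* overlap the Scramble markers.

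In the classical pathway, *C1s1* encodes the protease of the C1 complex that cuts C4. Its probe ILMN_1257046 gave raw signals of 299, 276.5 and 221.5 on Scramble arrays 1, 2 and 3 and 198, 204 and 179 on siDJ-1 arrays 1, 2 and 3. The other probe, ILMN_2667269, gave 252, 264 and 256 in Scramble and 191, 216 and 185 in siDJ-1. For both probes every siDJ-1 array was below every Scramble array, and Scramble array 3 was the dimmest of its group for the former only. The log2 fold changes were −0.98 (SE 0.18, 95% confidence interval −1.41 to −0.56, adjusted p = 0.00996) for ILMN_1257046 and −0.85 (SE 0.12, 95% confidence interval −1.14 to −0.56, adjusted p = 0.00531) for ILMN_2667269. These signals stood not far above the array medians of 152 to 167, so the size of the change depended on the background that was subtracted. Without background correction the log2 fold changes were −0.40 and −0.34, both still called (adjusted p = 0.00647 and 0.00642). *C1s1* has a near-identical copy, *C1s2*, and which of these transcripts each probe detects was not analysed here.

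*C4b* encodes C4, the substrate of C1s, and RefSeq counts *C4a* as a transcribed pseudogene. The genes are near-identical copies, so their 6 probes cannot be assigned to one or the other with certainty. None of the 6 was tested. Raw signals ran from 115 to 185 over all 6 arrays, around the array medians. Of the 6 probes 4 were detected on no array. *C4a* probe ILMN_2646052 was detected on Scramble array 3 alone, at a detection p of 0.0417. *C4b* probe ILMN_3049559 gave raw signals of 174.5, 166 and 149 on Scramble arrays 1, 2 and 3 and 167, 185 and 178 on siDJ-1 arrays 1, 2 and 3. It was detected on siDJ-1 arrays 2 and 3 alone, at a detection p of 0.0235 and 0.00534, and the groups overlapped, with siDJ-1 array 1 below Scramble array 1. With no filter on dim probes its log2 fold change was 0.46 (limma, adjusted p = 0.222), and no other *C4a* or *C4b* probe had a smaller adjusted p.

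**Figure D2:**
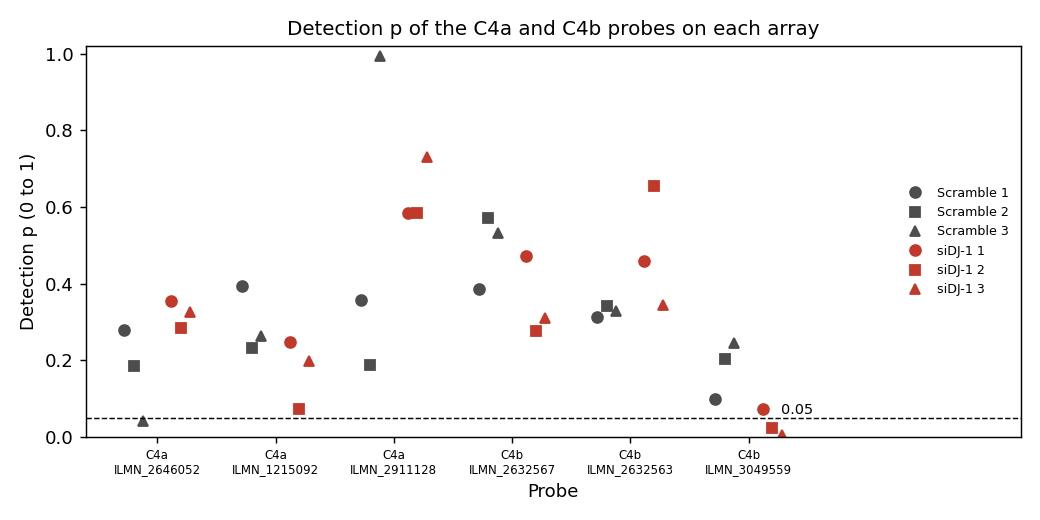
Detection p (vertical axis, 0 to 1) of the 6 *C4a* and *C4b* probes (horizontal axis) on each of the 6 arrays, with the threshold of 0.05 as a dashed line. Of the markers, 3 lie under the line, 1 of a Scramble array and 2 of siDJ-1 arrays.

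*Serping1* encodes C1 inhibitor, the serpin that inactivates C1r and C1s. Probe ILMN_2913166 gave raw signals of 1243, 1132 and 1157 on Scramble arrays 1, 2 and 3 and 1510.2, 1903 and 1305 on siDJ-1 arrays 1, 2 and 3. Probe ILMN_2775421 gave 749.8, 800.5 and 819 in Scramble and 1025, 1215 and 866 in siDJ-1. The groups did not overlap for either probe. For both, siDJ-1 array 2 was the brightest and siDJ-1 array 3 came closest to the Scramble arrays. *Serping1* rose by 0.48 (SE 0.11, adjusted p = 0.0213) and 0.50 (SE 0.11, adjusted p = 0.018) on the log2 scale, or 1.39-fold and 1.41-fold. These calls were close to the threshold. ILMN_2913166 lost its call without Scramble array 2 (adjusted p = 0.061) or without siDJ-1 array 1, 2 or 3 (0.0608, 0.0578 and 0.0504), and ILMN_2775421 without siDJ-1 array 1 or 2 (0.0642 and 0.0555), while both fold changes stayed positive in all 15 alternatives, from 0.40 to 0.57.

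The protease and its inhibitor were set against each other within each array, as the log2 level of *Serping1* (ILMN_2913166) minus that of *C1s1* (ILMN_1257046). This difference is between probes and has no meaning as a level, so only its change between groups is read. It was 2.78, 2.89 and 3.45 on Scramble arrays 1, 2 and 3 and 4.36, 4.67 and 4.48 on siDJ-1 arrays 1, 2 and 3. Every siDJ-1 array was above every Scramble array. The change was 1.46 (exact two-sided permutation p = 0.1, the smallest p that 3 arrays against 3 allow, and 0.1 after Benjamini-Hochberg over the 4 such pairs compared). Without background correction it was 0.83 (quantile) or 0.85 (75th percentile), alternatives chosen for this difference after seeing the data.

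*C3* encodes the protein at which all routes of the cascade meet. Its probe ILMN_2759484 gave raw signals of 1067, 1550.1 and 1166 on Scramble arrays 1, 2 and 3 and 693, 807 and 763 on siDJ-1 arrays 1, 2 and 3. All siDJ-1 arrays were below all Scramble arrays, and Scramble array 2 stood above the others of its group. *C3* fell by 0.80 on the log2 scale (SE 0.19, 95% confidence interval −1.25 to −0.35, adjusted p = 0.022), or 1.74-fold. The call was lost without Scramble array 3 (adjusted p = 0.0507), siDJ-1 array 1 (0.0783) or siDJ-1 array 2 (0.0628), with fold changes of −0.82, −0.71 and −0.77.

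*Cfb* encodes factor B, the serine protease of the alternative pathway convertase. Its probe ILMN_1230853 gave raw signals of 1600.4, 2084 and 1518 on Scramble arrays 1, 2 and 3 and 544, 764 and 350.0 on siDJ-1 arrays 1, 2 and 3. The brightest siDJ-1 array lay well below the dimmest Scramble array, and siDJ-1 array 3 was the dimmest of its group. The standard error over beads was 21.9 over 33 beads on siDJ-1 array 3 and 41.0 over 37 beads on siDJ-1 array 2. *Cfb* fell by 1.99 on the log2 scale (SE 0.28, 95% confidence interval −2.66 to −1.32, adjusted p = 0.00495), to 25.2% of the Scramble level, or 3.96-fold. It was called in all 15 alternatives, with log2 fold changes from −2.23 to −1.66.

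Within each array, *Cfb* minus *C3* was 0.66, 0.46 and 0.43 on Scramble arrays 1, 2 and 3 and −0.44, −0.10 and −1.47 on siDJ-1 arrays 1, 2 and 3. The groups did not overlap, and the change of −1.19 had an exact permutation p of 0.1. The size of this change leaned on siDJ-1 array 3, and it was −0.78 without that array, an alternative chosen after seeing the data.

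*Cd59a* encodes a membrane-anchored inhibitor of the terminal pore. Its probe ILMN_1228942 gave raw signals of 2884, 2384 and 2508 on Scramble arrays 1, 2 and 3 and 3006, 3436 and 2500.1 on siDJ-1 arrays 1, 2 and 3. Scramble array 1 lay above siDJ-1 array 3, so the groups overlapped. The log2 fold change was 0.18 (SE 0.11, 95% confidence interval −0.09 to 0.44, adjusted p = 0.272), and it was called in 0 of 15 alternatives (limma). Set against *Cd59a* within each array, *Cfb* changed by −2.16 and *C3* by −0.97 between the groups, with no overlap (exact permutation p = 0.1 each).

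The other genes of complement were read by 76 probes of 46 gene names, of which 14 probes of 12 genes were tested and 44 were detected on no array. Of the 14, 5 were called lower and 1 higher, where 13.6% of all tested probes were called lower and 16.5% higher, and the median log2 fold change was −0.09, against 0.05 over all. Probes of the C1q chains, *C2*, *Hc*, which encodes C5, the pore proteins *C6*, *C7* and *C9* and the receptors *C3ar1* and *C5ar1* were detected on too few arrays to be tested. On the side of the proteases, *C1s2* fell in 1 probe (ILMN_2929594, −0.97, adjusted p = 0.0116) while its 3 other probes were detected on no array, and so did a probe that the array names *Masp1*, a protease of the lectin route (ILMN_1250760, −0.91, adjusted p = 0.0053). RefSeq gave ILMN_1250760 no current symbol, and the probe that RefSeq assigned to *Masp1* (ILMN_2660969) was detected on 1 array and not tested. ILMN_1250760 gave raw signals of 858, 869 and 927 on Scramble arrays 1, 2 and 3 and 529, 616 and 416 on siDJ-1 arrays 1, 2 and 3, without overlap. *C1rl*, a relative of the C1r protease, was called lower by ILMN_2728796 (−1.22, adjusted p = 0.00474). This probe was detected on 3 Scramble arrays and 1 siDJ-1 array, so it passed the filter through the Scramble group alone and the size of its change is uncertain. For the other tested *C1rl* probe, detected on all 6 arrays, the change was −0.79 (adjusted p = 0.0505).

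Among membrane regulators, *Cd55*, which speeds the decay of convertases, fell (ILMN_1248714, −0.92, adjusted p = 0.013), with raw signals of 228, 232 and 218 on Scramble arrays 1, 2 and 3 and 179.8, 201 and 156 on siDJ-1 arrays 1, 2 and 3. All siDJ-1 arrays were below all Scramble arrays, and the probe was detected on 3 Scramble and 2 siDJ-1 arrays. The Scramble group was needed for this *Cd55* probe to pass the filter, and the size of its change is uncertain. *Cr1l* (Crry), a rodent inhibitor of convertases, fell in 1 probe (ILMN_2688631, −0.51, adjusted p = 0.0465) and had 0.19 (adjusted p = 0.481) in the other tested probe. *C8g*, a chain of the pore protein C8, rose by 0.70 (ILMN_2637180, adjusted p = 0.0444). When each array was left out in turn, the *Cr1l* and *C8g* calls each held in 1 of the 6 fits, with adjusted p up to 0.137 and 0.13. The *Cr1l* call was also lost with no filter (adjusted p = 0.101), a variance trend (0.0613), array weights (0.0702) and 75th percentile scaling without background correction (0.0552), and the *C8g* call with no filter (0.0955). Without background correction the changes were −0.41 for *C1rl* (ILMN_2728796), −0.60 for *C1s2*, −0.31 for *Cd55* and −0.26 for *Cr1l*, and 0.36 for *C8g*. *Cd59b*, a close copy of *Cd59a*, stood at 0.44 with no call (adjusted p = 0.0681).

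**Figure D3:**
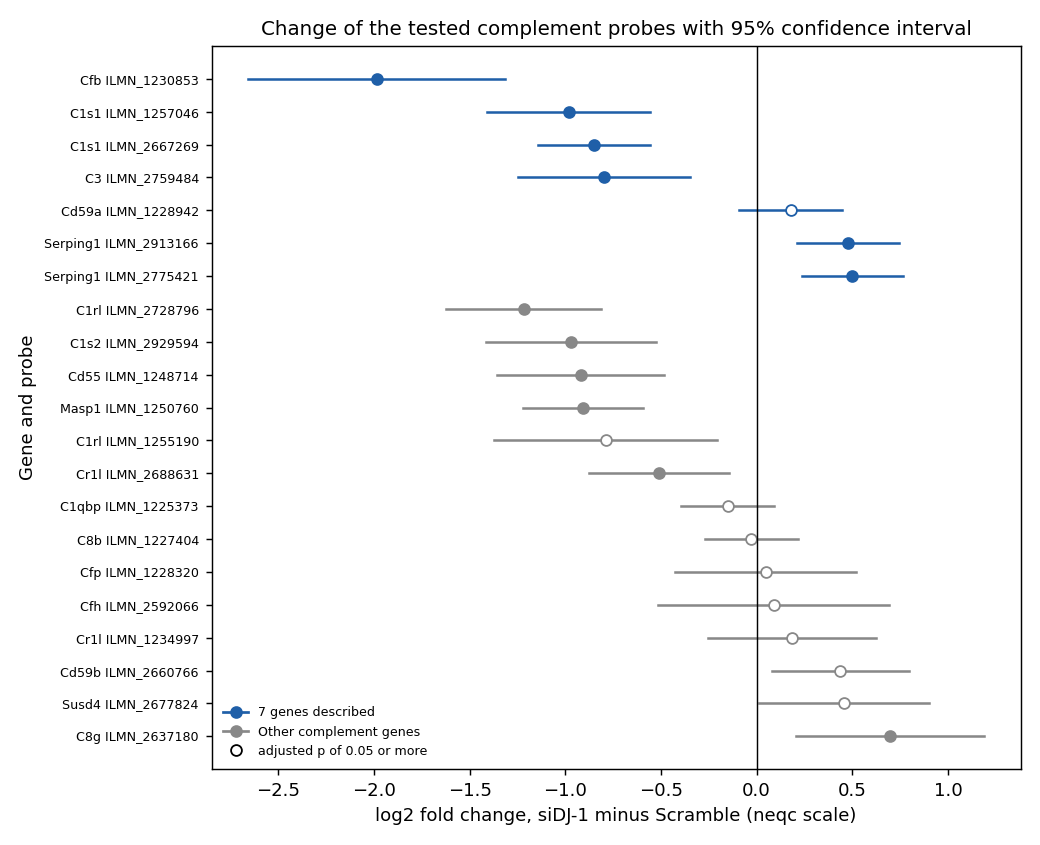
Log2 fold change, siDJ-1 minus Scramble (horizontal axis), with its 95% confidence interval, for the 7 tested probes of the genes described first and the 14 tested probes of other complement genes (vertical axis, gene and probe). Filled circles have an adjusted p under 0.05, among them *C1rl* ILMN_2728796, detected on 1 siDJ-1 array. *Cfb* lies at −1.99, and the filled circles to the right of 0 are both *Serping1* probes and *C8g*.

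*C3* and *Cfb* are also counted among the acute-phase proteins that liver secretes in inflammation. Of 44 probes of 29 other acute-phase gene names, 12 were tested, 2 were called lower and 1 higher, and the median log2 fold change was −0.27. Of all tested probes 30.1% were called (13.6% lower, 16.5% higher), a larger share than the 3 of 12 here. *Lbp*, which carries bacterial lipopolysaccharide to its receptor, gave raw signals of 418, 496 and 485 on Scramble arrays 1, 2 and 3 and 232, 304 and 196 on siDJ-1 arrays 1, 2 and 3. These groups did not overlap, and *Lbp* fell by 1.57 on the log2 scale (SE 0.25, adjusted p = 0.00692), or by 0.90 without background correction. *Serpina3g*, a gene of the serpin family that was part of this list, fell by 1.23 (SE 0.14, adjusted p = 0.00317). A probe that the array names *Cp*, ceruloplasmin, rose by 0.77 (ILMN_2555238, adjusted p = 0.0339), or by 0.27 without background correction. RefSeq gave it no current symbol, and the 4 tested probes that RefSeq assigned to *Cp* had log2 fold changes from −0.43 to 0.06 and no call. The call of ILMN_2555238 held in 1 of the 6 fits that leave out an array, with adjusted p up to 0.109, and was lost with no filter (0.0734). *Saa3*, a serum amyloid gene made outside the liver, had −0.49 (adjusted p = 0.0642).

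The cell type was checked against markers. All 16 probes of 11 skeletal muscle genes were tested, 11 were called lower in siDJ-1 and 0 higher (limma), where 13.6% and 16.5% of all tested probes were. Among them *Myh1* fell by 2.19 on the log2 scale (ILMN_2865744, adjusted p = 0.00284), and *Myh4* (−3.72, adjusted p = 0.00224) was detected on 3 Scramble arrays but 1 siDJ-1 array, so the size of its change is uncertain. Their summed raw signal was 173742, 177815 and 164517 on Scramble arrays 1, 2 and 3 and 130440.5, 157732 and 109121 on siDJ-1 arrays 1, 2 and 3. The brightest, *Acta1*, stood at −0.01 on the log2 fold scale (adjusted p = 0.977). *Ckm* (−0.07), *Myh3* (−0.17) and both *Myog* probes (0.22 and −0.11) had no call either. Some of the 11 lower probes read the same gene, as those of *Myh8*, *Myh1* and *Actn2* do. Fewer myotubes and less RNA of a gene per cell cannot be told apart in these bulk samples. Of 20 probes of 12 macrophage gene names, 3 were tested and 15 were detected on no array, among them those of *Csf1r*, *Ptprc* and *Tyrobp*. Their summed signal was 3109, 3382 and 2964.5 in Scramble and 3179.6, 3310.5 and 2927 in siDJ-1, and the brightest, *Cd14*, had −0.59 (adjusted p = 0.0626). *Cd68* had 0.52 (adjusted p = 0.169), detected on 1 Scramble and 3 siDJ-1 arrays. A lysozyme probe that RefSeq assigned to *Lyz1* (ILMN_2878071) had −0.83 (adjusted p = 0.0162). It was detected on 3 Scramble arrays and 1 siDJ-1 array, and so passed the filter through the Scramble group alone. No probe of *Lyz2*, the other lysozyme gene read, was detected on any array. None of the 10 hepatocyte and 6 adipocyte probes was tested. The part of the muscle and macrophage markers in the complement changes was not tested.

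By a fixed measure, the root mean square difference of mean-centred log2 values over the 6 arrays, the tested probes of other genes nearest to *Cfb* (ILMN_1230853) were those of LOC100048845 (0.155) and *Aatk* (0.172). Nearest to *C3* were *Srm* (0.0474) and *Pip5k1c* (0.0514). Nearest to *C1s1* (ILMN_1257046) were *Gas8* (0.0973) and A430106G13RIK (0.101). Each of these 6 probes fell, since a close pattern includes the difference between the groups. For *Serping1* (ILMN_2913166) the nearest were *Csrp3* (0.0200) and *Eola1* (0.0439).

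**Figure D4:**
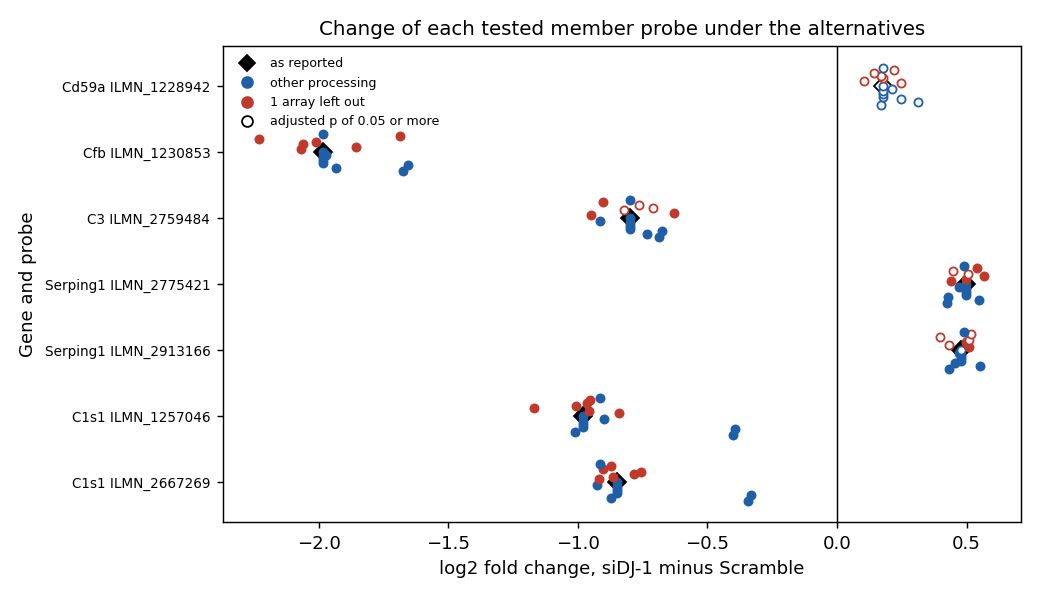
Log2 fold change, siDJ-1 minus Scramble (horizontal axis), of the 7 tested probes of the genes described first (vertical axis), as reported (diamonds) and in the alternatives (circles, with fits that leave out 1 array in red). Open markers have an adjusted p of 0.05 or more. *Cfb* stays between −2.23 and −1.66, and both *C1s1* probes move towards 0 in the fits without background correction.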

How the data were processed

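RNA of 3 Scramble and 3 siDJ-1 samples was labelled and hybridized to Illumina Mouse WG-6 V2 arrays, which the authors scanned and quantified in GenomeStudio. The deposited intensity of each probe is a mean over beads, neither normalized nor background-subtracted, with its standard error and bead number. The deposited detection p-value of each probe compares it with negative controls on the same array. Arrays had median signals of 162, 167 and 153.5 (Scramble) and 161, 167 and 152 (siDJ-1), and median bead standard errors of 11.3, 8.30 and 8.66 against 7.17, 6.36 and 5.88.

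In R 4.3.3 with limma 3.58.1, neqc was applied (normexp with an offset of 16 and the negative controls estimated from detection p, quantile normalization, log2). Probes with detection p under 0.05 on at least 3 of 6 arrays, 17890 of 45281, were fitted with lmFit and eBayes without covariates, two-sided, with Benjamini-Hochberg adjustment over all of them and a threshold of 0.05. Probes of a gene were kept apart. Current symbols came from RefSeq (GRCm38.p6) for 32345 probes, and the names of the file were kept otherwise, as for *Pip5k1c* and the called probes of *Masp1* and *Cp*. The rule for named genes took every probe of the complement genes, every called probe of the other complement and acute-phase lists, the targeted gene and the 2 nearest patterns of each gene (those of *Cd59a* are not reported here); others were named after their values were seen. Members and lists (other complement genes, acute-phase proteins, cell type markers) were chosen with earlier results of these data known.

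The 15 alternatives were no background correction, 75th percentile scaling with or without that correction, testing all probes, testing those with detection p under 0.01 on each of the 6 arrays, a variance trend, array weights, the replicate block, gene means and each array left out in turn. The pipeline was tested on simulated data.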

Additional observations from a re-analysis of the deposited data

How the results depend on the processing

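Over the 15 alternatives no tested complement probe changed sign. *Dj1*, *Cfb* and both *C1s1* probes kept their calls in all 15, *C3* in 12, *Serping1* in 10 (ILMN_2913166) and 13 (ILMN_2775421), and *Cd59a* was called in 0 (limma, 0.11 to 0.31, adjusted p from 0.0746 to 0.544). With no filter 3519 probes were called in all (1908 higher, 1611 lower). Leaving out 1 array gave 2559 (without siDJ-1 array 1) to 5271 in all, 1387 to 2859 higher and 1172 to 2412 lower, and 2712 without siDJ-1 array 3. With fewer arrays the fits have less power by construction. For the complement genes described first these fits gave 3 to 6 calls, 0 to 2 of them higher, with log2 fold changes of −0.95 to −0.63 for *C3*, 0.40 to 0.52 for *Serping1* ILMN_2913166 and 0.44 to 0.57 for ILMN_2775421. They gave 0 to 1 higher call among other complement genes, and 0 to 1 higher and 2 to 4 lower among acute-phase genes. Other complement genes had 2 higher calls without background correction (quantile), with the stricter filter (and 3 lower), with the variance trend and with array weights, and 0 with no filter. Acute-phase genes had 6 calls with array weights (2 higher, 4 lower), and 0 higher with no filter, the stricter filter and gene means. Of the 4 within-array differences between probes, run under all alternatives but gene means (chosen after seeing the data), none changed sign. *Cfb* minus *C3* ran from −1.46 to −0.78 and *Serping1* minus *C1s1* from 0.83 to 1.67. Gene means merge the *Serping1* probes into 1 higher call. The causes of the other shifts were not tested. Dim probes, such as those of *C1s1*, are limited by their signal over background.

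With the replicate block, 5 of the 7 tested probes were called, 1 higher, and *Serping1* ILMN_2913166 kept 0.48 with an adjusted p of 0.0578 (0.00188 to 0.061 over its alternatives); no other call among the 7 changed. The calls of *Cr1l*, *C8g* and *Cp* had adjusted p of 0.0631, 0.0573 and 0.0556. Higher calls were 0 among the other complement genes and 0 among the acute-phase genes, and 4350 probes were called in all. The labels say only that samples share a number. Deviations of same-numbered arrays from their group means correlated at 0.054, 0.047 and 0.020 across probes, each array correlating best with its own number, a hint from the data and not from the design.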

Other observations

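The neighbours of the complement genes in RefSeq gene order were chosen after the data were seen, with 4 genes on each side. Around *Cfb*, the tested probes of *Nelfe*, *Skiv2l* and *Stk19* lay between −0.17 and 0.24 on the log2 fold scale and both *Dxo* probes at −0.51 and −0.65, with no call, while *C2* was detected on no array. *Slc44a4* fell (−0.74, adjusted p = 0.0364) and *Ehmt2* rose (0.33 and 0.43, adjusted p = 0.0499 and 0.0234). Next to *C1s1*, the only tested probe of *C1s2* fell (−0.97, adjusted p = 0.0116), and whether it reads *C1s1* was not analysed here. *C1rl* stood at −1.22 (adjusted p = 0.00474, detected on 4 arrays) and −0.79 (adjusted p = 0.0505). The tested probes of *Lpcat3*, *Emg1*, *Pex5* and *Clstn3* had no call. Beside *C3*, *Trip10* rose by 0.83 (adjusted p = 0.0122), while the probes of *Gpr108* (−0.01 to 0.12), *Tnfsf9* (0.18) and *Tubb4a* (−0.84, adjusted p = 0.174) had no call. Near *Serping1*, *Zdhhc5* fell by 0.60 (adjusted p = 0.0243) and *Slc43a1* rose by 0.52 (ILMN_1229667, adjusted p = 0.0363). Another *Slc43a1* probe stood at 0.76 (adjusted p = 0.0223), but it was detected on only 3 arrays and the size of its change is uncertain. *Ube2l6* (−0.51 and −0.47), *Timm10* (−0.56), *Med19* (−0.15 and −0.28) and *Clp1* (0.02) had no call. Near *Cd59a*, the *Fbxo3* probes detected on all 6 arrays stood at 0.21 and 0.22 with no call, and *Cd59b* had no call. A *Fbxo3* probe stood at 0.97 (adjusted p = 0.00472), but it was detected on only 3 arrays and the size of its change is uncertain.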
